A study of Mus musculus with 6 samples.

Results

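The matrix metalloproteinases (Mmp), the Adam and Adamts proteases and their Timp inhibitors were followed in cultured mouse mammary tumor explant cells. Members were the protein-coding genes of the deposited table whose symbols belong to these 4 families. They came to 80 of 41214 genes in the table, of which 21911 are protein-coding: 24 Mmp, 33 Adam, 19 Adamts and 4 Timp genes. The shCdGAP group (3 libraries) was cells depleted of CdGAP with a short hairpin RNA, and the shCON group (3 libraries) was control cells. CdGAP is encoded by Arhgap31 and switches off the small GTPases Cdc42 and Rac1. The study examined it as a co-repressor, with Zeb2, of the E-cadherin gene. Both groups express Neu-NT, which is ErbB2 in a constitutively active version, and both descend from the mouse mammary epithelial line NMuMG. All cells were grown in serum with insulin and the selection drug G418. The genotype label separates the groups, while the cell type label of all 6 samples names the control hairpin. Whether a population is a clone, and how many hairpins were used, is not given in the sources used here.

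Mmps are zinc-dependent proteases, secreted or held in the membrane, that are made as inactive proenzymes and cleave collagens, laminins and other matrix proteins. Adams are membrane-anchored relatives, several of which shed the outer parts of growth factors and receptors, and Adamts proteases are secreted and cut proteoglycans or trim procollagens. Timps occupy the active site of many of these enzymes and block it. In the mammary gland they act in branching and involution, where stromal cells are a major source of several of them.

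A row of 10 Mmp genes lies on chromosome 9 between 7272514 and 7699585 (GRCm38, GENCODE M21), in the order Mmp13, Mmp12, Mmp1b, Mmp3, Mmp1a, Mmp10, Mmp8, Mmp27, Mmp20 and Mmp7. The 120 bases before the RefSeq start of the 3 genes of this row that had enough reads to be tested are printed because these 3 genes all had lower levels in shCdGAP cells, as described further on. They are given 5′ to 3′ on the plus strand of build GRCm38.p6, at chr9:7272394-7272513 for Mmp13, chr9:7445702-7445821 for Mmp3 and chr9:7502222-7502341 for Mmp10. Capitals mark TGANTCA, the letters bound by Fos and Jun (AP-1) proteins, and TATAAA, the TATA box.
Mmp13: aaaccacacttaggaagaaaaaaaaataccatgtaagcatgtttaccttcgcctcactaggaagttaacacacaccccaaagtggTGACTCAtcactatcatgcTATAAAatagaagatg
Mmp3: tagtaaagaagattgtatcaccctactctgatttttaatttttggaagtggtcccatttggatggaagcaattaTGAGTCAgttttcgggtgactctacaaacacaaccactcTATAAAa
Mmp10: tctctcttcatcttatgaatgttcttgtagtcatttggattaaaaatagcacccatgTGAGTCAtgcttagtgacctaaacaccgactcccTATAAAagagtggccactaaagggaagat
The first motif began 35 bases before the start in Mmp13, 46 in Mmp3 and 63 in Mmp10, and TATAAA began 16, 7 and 29 bases before it. The RefSeq start of Mmp10 begins no GENCODE transcript, and the GENCODE gene starts at 7502352. In the 250 bases before the start, TGANTCA, which reads alike on both strands, was found in 8 of the 10 genes of the row, the exceptions being Mmp8 and Mmp27. It was found in 4 of the 39 other members with a promoter in the RefSeq table and in 2113 of all 27025 genes there (7.82%). TATAAA on the gene's own strand was found in 7 of the 10, in 3 of the 39 and in 8.94% of all genes. The E-box letters CAGGTG or CACCTG, which cover both strands, were found in 2 of the 10, in 7 of the 39 and in 19.4% of all genes. These matches describe the letters and are not evidence that a factor is bound.

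Total reads recovered from the table ran from 19176540 to 26824249 per library. The hairpin's target Arhgap31 stood at 0.149 to 0.826 FPKM in shCdGAP libraries and 1.19 to 1.35 FPKM in shCON libraries (log2 fold change -0.56, adjusted p = 0.0836, limma). Replicate 1 of shCdGAP stood apart: across genes its correlation was 0.948 with replicate 2 and 0.938 with replicate 3, against 0.996 between those 2 libraries. The epithelial keratins Krt8 and Krt18 were at 1491 to 3022 FPKM in all 6 libraries, and Cdh1 was called higher (151.6 to 184 FPKM in shCdGAP libraries, 37.9 to 57.2 in shCON libraries). Krt7 was called higher at under 1 FPKM (adjusted p = 0.0353, limma). That call was lost with the replicate block, with no filter on low genes and without any 1 library other than shCdGAP replicate 1 (adjusted p up to 0.128, limma). Epcam and Krt5 were called lower, with Epcam at 0 in all shCdGAP libraries and 0.517 to 0.812 FPKM in shCON libraries. Epcam and Krt5 had enough reads to be tested through their shCON libraries alone, so they had to differ once tested. Cldn3 had no read in any library. Marker lists of other cell types summed to 0.597 to 1.10 FPKM in shCdGAP and 0.814 to 0.947 in shCON libraries for fibroblasts, and for endothelium to at most 0.0295 FPKM in shCdGAP and 0.265 FPKM in shCON libraries. The macrophage list summed to 65.0 to 129 FPKM in shCdGAP and 107 to 113 in shCON libraries, most of it Cd14, with Adgre1 at 0 and the leukocyte gene Ptprc at no more than 0.0197 FPKM. Of that list Cd68 was called lower (2.37 to 8.45 FPKM in shCdGAP libraries, 12.2 to 17.3 in shCON libraries, adjusted p = 0.0465, limma) and Itgam higher (at most 0.257 FPKM in shCdGAP and 0.0487 FPKM in shCON libraries, adjusted p = 0.0160, limma), both calls being lost without shCdGAP replicate 2, shCON replicate 2 or shCON replicate 3. Cd68 also lost its call without shCdGAP replicate 3 or shCON replicate 1 (adjusted p = 0.0703 and 0.151, limma). It did so too with no filter on low genes and with a mean of at least 5 CPM required. The neutrophil list summed to 3.72 to 15.8 FPKM in shCdGAP and 65.3 to 117 in shCON libraries, most of it S100a8 (2.88 to 15.4 FPKM in shCdGAP and 64.3 to 116 in shCON libraries), with Mpo at 0. The part of these markers in the results was not tested. Separate cultures are not recorded in the labels, so p-values measure only how far these libraries spread, which may be technical.

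Of the 80 members, 17 had no read in any library (3 Mmp, 12 Adam and 2 Adamts genes), 34 had reads but too few to test, and 29 were tested (10 Mmp, 10 Adam, 7 Adamts and 2 Timp genes). Where 3 values of a group are listed, they are those of replicates 1, 2 and 3 in that order. Levels are FPKM, reads scaled to transcript length and to sequencing depth, and can be compared between genes. Fold changes are log2 differences of FPKM + 1, shCdGAP over shCON, which understates the change of low genes. At an adjusted p under 0.05 in limma, 4 members were higher in shCdGAP cells (Adamts1, Adamts10, Mmp28 and Mmp15) and 5 were lower (Mmp10, Adamts4, Mmp3, Adam3 and Adamts14). The same threshold called 21.0% of all 13483 tested genes, 9.92% higher and 11.1% lower. Among the tested members 15 had groups that did not overlap (6 higher and 9 lower), against 44.1% of all tested genes (21.8% higher and 22.3% lower). Members that passed the read filter through their higher group alone had to differ, so these shares say nothing about the families as wholes. With the replicate number as a block, 8 members were called and 18.2% of all genes, without shCdGAP replicate 1 it was 10 members and 39.9% of all genes, and limma-voom on recovered reads called 10 members and 21.8% of all genes. The median fold change of the tested members was 0.01, against -0.01 for all tested genes.

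**Figure D1:**
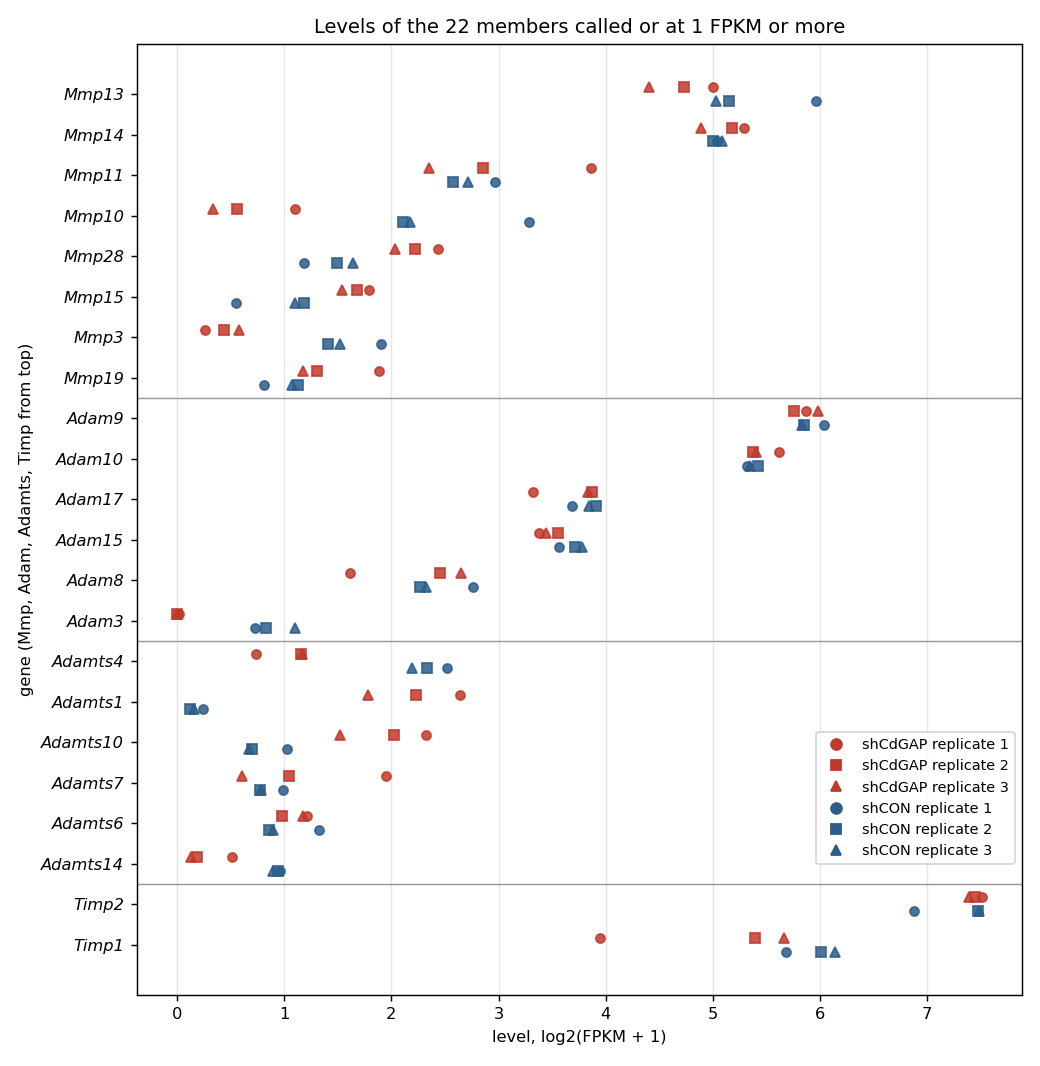
Level of each of the 22 members that were called or averaged at least 1 FPKM in a group, as log2(FPKM + 1) on the horizontal axis, in each of the 6 libraries, with shCdGAP in red above shCON in blue and a marker shape for each replicate number. Timp2, Adam9, Adam10 and Mmp14 lie at the right with overlapping groups, while the red and blue points of Adamts1, Mmp10 and Adamts4 are apart.

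Collagenases cut fibrillar collagens, and Mmp13 was the one that these cells made in quantity. Mmp13 (collagenase 3, ENSMUSG00000050578, chromosome 9) stood at 31.1, 25.5 and 20.2 FPKM in shCdGAP libraries, and at 61.3, 34.5 and 31.8 FPKM in shCON libraries. Every shCdGAP library was below every shCON library, with the highest value in shCON replicate 1. The means were 25.6 ± 5.42 and 42.5 ± 16.3 FPKM (SD, n = 3 each), and the fold change of -0.67 (SE 0.28) missed the threshold in limma (adjusted p = 0.156). In the fit blocked on replicate number it passed (adjusted p = 0.0453, limma), and without both libraries numbered 1 it was -0.52 (adjusted p = 0.0105). The interstitial collagenase genes Mmp1a and Mmp1b had no read in the shCdGAP libraries, against 14 and 8 reads over the shCON libraries. Taking 3 reads over the shCdGAP group as the floor, the depth-scaled ratio was 4.42 for Mmp1a and 2.52 for Mmp1b. These ratios leave out counting error in the shCON reads and the spread of replicates, so they are not lower bounds. The authors' deposited table called Mmp1a lower (adjusted p = 0.0168, DESeq2) and did not call Mmp1b (adjusted p = 0.132, DESeq2). Mmp1a and Mmp1b, with Mmp3 between them in the row, are related genes that may share reads. Of the exon bases of Mmp1b, 10.8% overlap Mmp12 on the opposite strand. Mmp8, the neutrophil collagenase, had no read in the shCdGAP libraries and 1 in the shCON libraries.

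Stromelysins cleave proteoglycans, laminin and fibronectin and can activate other proenzymes, and both stromelysins of the chromosome 9 row fell in shCdGAP cells. Mmp3 (stromelysin 1, ENSMUSG00000043613) stood at 0.195, 0.355 and 0.493 FPKM in shCdGAP libraries, and at 2.74, 1.66 and 1.87 FPKM in shCON libraries. The groups lay well apart. Mmp3 was 6.01-fold lower by the means of 0.347 ± 0.149 and 2.09 ± 0.570 FPKM (SD, n = 3 each), with a fold change of -1.19 (SE 0.16, adjusted p = 0.00450, limma). Mmp10 (stromelysin 2, ENSMUSG00000047562) stood at 1.14, 0.477 and 0.257 FPKM in shCdGAP libraries, and at 8.76, 3.32 and 3.50 FPKM in shCON libraries. In both groups the library numbered 1 was the highest, and the groups did not overlap. Mmp10 fell by 1.86 on the log2 scale (SE 0.37, adjusted p = 0.0181, limma), a call that was lost without shCdGAP replicate 2 (adjusted p = 0.0684) or replicate 3 (adjusted p = 0.0536). In bulk RNA, fewer cells that make a transcript and less of it per cell cannot be told apart. Mmp11 (stromelysin 3, on chromosome 10), a gene outside the row, stood at 13.5, 6.23 and 4.12 FPKM in shCdGAP libraries, and at 6.80, 4.98 and 5.58 FPKM in shCON libraries. The groups overlapped, with shCdGAP replicate 1 far above the rest, and the fold change of 0.27 missed the threshold (adjusted p = 0.661, limma), as it did at -0.15 without that library (adjusted p = 0.539). The matrilysin gene Mmp7 had 5 reads in the shCdGAP libraries and none in the shCON libraries.

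Along the chromosome 9 row, 9 of the 10 genes had reads, and of the 3 tested, 2 were called lower and none higher. Over all tested genes 11.1% were called lower and 9.92% higher. Around the row, 9 other tested genes lay within 1 Mb, with fold changes from -0.59 to 0.53 and a median of 0.06. One of them, Birc2, an inhibitor of apoptosis, was called higher (0.53, adjusted p = 0.0319, limma), and 9230110C19Rik was called lower (-0.59, adjusted p = 0.0494, limma). The median of expressed genes of chromosome 9 was 0.07. Mmp12, the macrophage elastase next to Mmp13, had 10 reads in shCdGAP libraries and 34 in shCON libraries, below the filter.

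**Figure D2:**
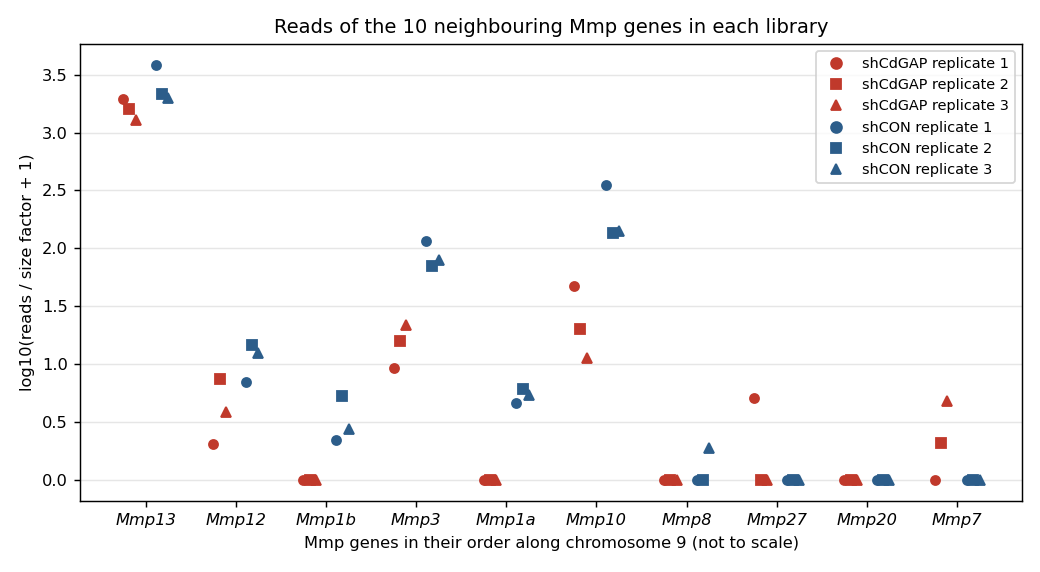
Reads of the 10 neighbouring Mmp genes in each library, divided by the library's size factor and shown as log10(value + 1) on the vertical axis, with genes in chromosomal order and shCdGAP (red) left of shCON (blue). Mmp13, Mmp3 and Mmp10 lie above the rest, with their shCdGAP points below their shCON points, and Mmp1a and Mmp1b show shCdGAP points at 0.

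The gelatinases, which digest denatured collagen and basement membrane, were nearly silent. Mmp2 had 2, 1 and 1 reads in shCdGAP libraries, and 8, 12 and 6 reads in shCON libraries. Mmp9 had 5 reads over the shCdGAP libraries and 1 over the shCON libraries. The authors' deposited table called Mmp2 lower (log2 fold change -1.78, adjusted p = 0.0244, DESeq2), and the count here was too low to test.

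Membrane-type Mmps are anchored at the cell surface, and Mmp14 (MT1-MMP), which activates pro-Mmp2 together with Timp2, was the most abundant of them. Mmp14 stood at 38.2, 35.3 and 28.6 FPKM in shCdGAP libraries, and at 31.9, 30.9 and 32.9 FPKM in shCON libraries. The groups overlapped, and its fold change was 0.08 (SE 0.13, adjusted p = 0.710, limma). Mmp15 (MT2-MMP, ENSMUSG00000031790, chromosome 8) stood at 2.46, 2.20 and 1.91 FPKM in shCdGAP libraries, and at 0.464, 1.27 and 1.14 FPKM in shCON libraries. All shCdGAP values exceeded all shCON values, of which replicate 1 was the lowest. Mmp15 rose by 0.73 (SE 0.19, adjusted p = 0.0422, limma), but the call held in only 4 of 14 alternative fits and was lost with the replicate block (adjusted p = 0.0801) and without any 1 library other than shCdGAP replicate 1 (adjusted p up to 0.12). The median of expressed genes of chromosome 8 was itself 0.21, and its part in the result was not tested. Mmp24 (MT5-MMP) stood at 0.0840, 0.175 and 0.206 FPKM in shCdGAP libraries, and at 0.166, 0.637 and 0.742 FPKM in shCON libraries. Its groups overlapped, and its fold change was -0.37 (adjusted p = 0.154, limma), while the authors' deposited table called it lower (-1.43, adjusted p = 0.0291, DESeq2).

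Among the other Mmps, Mmp28 rose. Mmp28 (epilysin, ENSMUSG00000020682, chromosome 11), an Mmp first found in skin and testis, stood at 4.39, 3.67 and 3.11 FPKM in shCdGAP libraries, and at 1.27, 1.81 and 2.12 FPKM in shCON libraries. The groups did not overlap. The means differed 2.15-fold, and Mmp28 rose by 0.79 on the log2 scale (SE 0.17, adjusted p = 0.0218, limma). That call was lost with the replicate block (adjusted p = 0.0645) and without shCdGAP replicate 2, shCON replicate 1 or shCON replicate 2 (adjusted p = 0.0751, 0.0611 and 0.0810). Of its exon bases, 12% overlap 1700020L24Rik on the opposite strand, and the strand handling is not given in the sources used here. Mmp19, which acts on basement membrane proteins, stood at 2.68, 1.47 and 1.26 FPKM in shCdGAP libraries, and at 0.759, 1.18 and 1.10 FPKM in shCON libraries. Its groups did not overlap, yet the fold change of 0.45 missed the threshold (adjusted p = 0.182, limma), and 22.3% of its exon bases overlap Tmem198b on the opposite strand.

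None of the Adams that shed growth factors and receptors passed the test. Adam9 stood at 57.3, 53.1 and 62.1 FPKM in shCdGAP libraries, and at 64.9, 56.7 and 55.9 FPKM in shCON libraries. Adam10, the sheddase of Notch receptors and N-cadherin, stood at 48.1, 40.4 and 41.3 FPKM in shCdGAP libraries, and at 38.8, 41.9 and 39.6 FPKM in shCON libraries. Adam17, which frees Tnf and several ligands of the Egf receptor, stood at 9.02, 13.7 and 13.3 FPKM in shCdGAP libraries, and at 11.9, 14.1 and 13.4 FPKM in shCON libraries. The groups of all 3 genes overlapped, and their fold changes were -0.04 (SE 0.11), 0.10 (SE 0.11) and -0.13 (SE 0.17), with adjusted p = 0.831, 0.536 and 0.630 in limma. Adam15, an integrin-binding Adam, averaged 10.0 ± 0.679 FPKM in shCdGAP libraries and 11.9 ± 0.963 FPKM in shCON libraries (SD, n = 3 each). Its groups did not overlap, with a fold change of -0.23 (adjusted p = 0.182, limma), and 20.6% of its exon bases overlap an antisense gene. Adam8, known from leukocytes and from tumor cells, stood at 2.06, 4.47 and 5.29 FPKM in shCdGAP libraries, and at 5.78, 3.83 and 4.01 FPKM in shCON libraries. Its groups overlapped (-0.21, adjusted p = 0.660, limma), and without shCdGAP replicate 1 the sign turned to 0.10 (adjusted p = 0.664).

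One Adam was called, and it was one of those without the zinc-binding motif HExxH in the longest open reading frame. The motif was present in 20 of the 33 Adam genes, of which 6 were tested and none called, and absent from 13, of which 4 were tested. The 2 tested Adams with an unadjusted p under 0.05 in limma, Adam3 and Adam23, both lack the motif. Adam3 passed the read filter through its shCON libraries alone, so it had to differ once tested. Of Adams with the motif, Adam15 was called without both libraries numbered 1 (-0.25, adjusted p = 0.0336, limma). Over all tested genes 21.0% were called, and a difference between Adams with and without the motif was not tested. The authors' deposited table called Adam12, which has the motif and was below the filter here, higher (log2 fold change 2.03, adjusted p = 0.0149, DESeq2) on 25 reads in shCdGAP libraries and 2 in shCON libraries. Adam3 (ENSMUSG00000031553, chromosome 8), a sperm surface protein needed for mouse fertilization, had 1, 0 and 0 reads in shCdGAP libraries, and 37, 63 and 90 reads in shCON libraries. In shCON cells that came to 0.652, 0.779 and 1.14 FPKM, and in shCdGAP cells the transcript was all but undetected. Corrected for depth, its summed reads were 180-fold lower in shCdGAP libraries, with a 95% interval of 31.9 to 7142 that covers counting error only. The fold change was -0.88 (SE 0.10, adjusted p = 0.00280, limma). Of the Adam genes beside it, Adam18, another sperm protein, had no read in shCdGAP libraries and 12 in shCON libraries, Adam5 had 4 and 6, and Adam32 had 22 and 5. Adam9, at the end of the same row, did not differ beyond its spread. Adam23, an Adam without the motif that binds integrins, stood at 0.266, 0.458 and 0.584 FPKM in shCdGAP libraries, and at 0.165, 0.146 and 0.125 FPKM in shCON libraries. Its groups did not overlap, and its fold change of 0.32 fell just short of the threshold (adjusted p = 0.0512, limma), while the authors' deposited table called it higher (1.49, adjusted p = 7.95e-05, DESeq2).

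Among the Adamts genes that cleave aggrecan and versican, Adamts1 rose and Adamts4 fell. Adamts1 (ENSMUSG00000022893, chromosome 16, 85793827 to 85803113, minus strand) stood at 5.23, 3.70 and 2.44 FPKM in shCdGAP libraries, and at 0.186, 0.0891 and 0.113 FPKM in shCON libraries. These values rest on 1387 reads in shCdGAP libraries and 48 in shCON libraries, and the groups lay far apart. The means of 3.79 ± 1.39 and 0.129 ± 0.0502 FPKM (SD, n = 3 each) differed 29.4-fold, or by 2.04 on the fitted log2 scale (SE 0.22, adjusted p = 0.00200, limma). The median of expressed genes of chromosome 16 was -0.27, and its part in the result was not tested. Adamts4 (aggrecanase 1, ENSMUSG00000006403, chromosome 1, 171250421 to 171260637, plus strand) stood at 0.664, 1.22 and 1.25 FPKM in shCdGAP libraries, and at 4.75, 4.04 and 3.57 FPKM in shCON libraries. Each shCdGAP library was below each shCON library. Adamts4 was 3.94-fold lower by the means, with a fold change of -1.33 (SE 0.16, adjusted p = 0.00334, limma). Adamts1 and Adamts4 were called in all 14 alternative fits. Adamts9, of the same group, was at 0.0244, 0.0436 and 0.0386 FPKM in shCdGAP libraries, and at 0.182, 0.165 and 0.107 FPKM in shCON libraries, with no overlap and an adjusted p of 0.0589 (-0.15, limma). With a pseudocount of 0.1 FPKM and in limma-voom Adamts9 was called lower. Adamts8 had no read in shCdGAP libraries and 15 in shCON libraries. With 3 reads as the shCdGAP floor the ratio was 4.73, which leaves out counting error in the shCON reads.

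The other Adamts calls fell in different classes. Adamts10 (ENSMUSG00000024299, chromosome 17), which associates with fibrillin microfibrils, stood at 4.0, 3.06 and 1.87 FPKM in shCdGAP libraries, and at 1.03, 0.627 and 0.589 FPKM in shCON libraries. The groups did not overlap, and Adamts10 rose 3.97-fold by the means, or 1.16 on the log2 scale (SE 0.23, adjusted p = 0.0170, limma). That call was lost without shCdGAP replicate 2, shCON replicate 2 or shCON replicate 3 (adjusted p = 0.0648, 0.0767 and 0.0746). The median of expressed genes of chromosome 17 was 0.36, and its part in the result was not tested. Adamts14 (ENSMUSG00000059901, chromosome 10), a procollagen N-proteinase, stood at 0.429, 0.140 and 0.0930 FPKM in shCdGAP libraries, and at 0.946, 0.923 and 0.856 FPKM in shCON libraries. The shCON values were tight and the shCdGAP values spread, without overlap. Adamts14 fell with a fold change of -0.65 (SE 0.11, adjusted p = 0.0108, limma), and lost the call without shCON replicate 2 (adjusted p = 0.0515) or shCdGAP replicate 2 (adjusted p = 0.050). Expressed genes of chromosome 10 had a median of -0.21, whose part in the result was not tested. Adamts2 and Adamts3, relatives of Adamts14, had no read in shCdGAP libraries and 5 and 1 in shCON libraries. Adamts7, which cleaves the cartilage protein Comp, averaged 1.48 ± 1.22 FPKM in shCdGAP libraries and 0.807 ± 0.158 FPKM in shCON libraries (SD, n = 3 each), with overlapping groups (0.35, adjusted p = 0.512, limma); its value of 2.85 FPKM in shCdGAP replicate 1 was the highest, and without that library the fold change was -0.03. Adamts6 averaged 1.18 ± 0.182 FPKM in shCdGAP libraries and 1.06 ± 0.385 FPKM in shCON libraries (0.09, adjusted p = 0.701, limma), again with overlap.

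**Figure D3:**
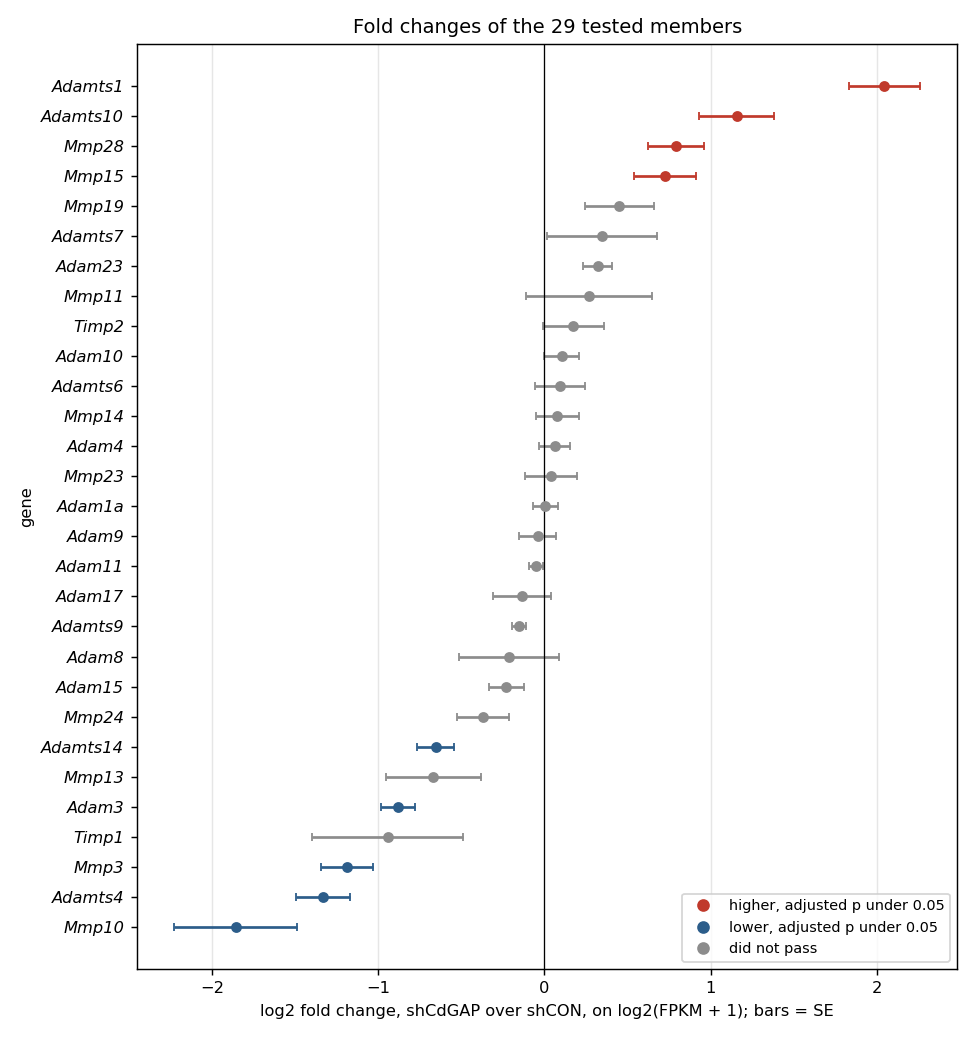
Log2 fold change (shCdGAP over shCON, on log2(FPKM + 1)) of the 29 tested members, with bars for the standard error of the limma fit, red for members called higher, blue for members called lower and grey for the rest. Adamts1 at 2.04 and Mmp10 at -1.86 mark the ends of the range.

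Of the inhibitors, Timp1 and Timp2 made up nearly all Timp transcript and neither passed the test. Timp2 stood at 182, 174 and 167 FPKM in shCdGAP libraries, and at 116, 176 and 178 FPKM in shCON libraries, the highest level of all members. Its groups overlapped, with shCON replicate 1 low (0.17, SE 0.18, adjusted p = 0.555, limma). Timp1 (chromosome X) stood at 14.4, 41.1 and 49.9 FPKM in shCdGAP libraries, and at 50.3, 63.5 and 69.7 FPKM in shCON libraries. The highest shCdGAP value lay just under the lowest shCON value, and shCdGAP replicate 1 was the lowest library. The means were 35.1 ± 18.5 and 61.2 ± 9.89 FPKM (SD, n = 3 each), with a fold change of -0.94 (SE 0.45, adjusted p = 0.203, limma). Without shCdGAP replicate 1 it was -0.41 (adjusted p = 0.0763), and without both libraries numbered 1 it was -0.54 and passed the threshold (adjusted p = 0.00662, limma). Timp3 had 1 read in each group, and Timp4 had 6 reads in shCdGAP libraries, 5 of them in replicate 1, and none in shCON libraries.

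Added up over each family, the levels of the groups overlapped in all 4 families. The Mmp sum was 76.9 ± 17.0 FPKM in shCdGAP libraries and 92.4 ± 19.4 FPKM in shCON libraries (SD, n = 3 each), of which Mmp13 and Mmp14 made 78.1% and 80.5%. The Adam sum was 128 ± 4.87 FPKM in shCdGAP libraries and 131 ± 2.93 FPKM in shCON libraries, of which Adam9 and Adam10 made 78.8% and 76.0%. The Adamts sum was 10.8 ± 3.56 FPKM in shCdGAP libraries and 7.99 ± 1.46 FPKM in shCON libraries. Adamts sums were highest in shCdGAP replicate 1. The Timp sum was 209 ± 11.3 FPKM in shCdGAP libraries and 218 ± 44.9 FPKM in shCON libraries. The ratio of summed Timp to summed Mmp was 2.08, 2.84 and 3.58 in shCdGAP libraries, and 1.45, 2.96 and 3.05 in shCON libraries, with the library numbered 1 the lowest of each group. The sums and ratios were not tested.

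**Figure D4:**
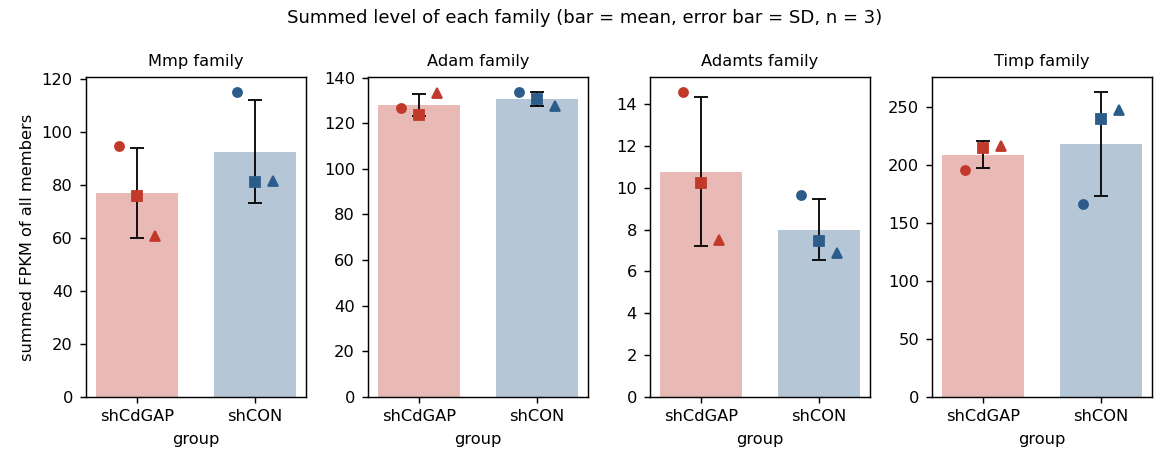
Summed FPKM of the Mmp, Adam, Adamts and Timp members in each library, with shCdGAP (red) left of shCON (blue), bars for the group mean, error bars for the SD (n = 3) and circles, squares and triangles for replicates 1, 2 and 3. The ranges of the groups overlap in all 4 panels, with Adam sums between 124 and 134 FPKM.

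The authors' deposited table tested 42 members and called 6 higher and 11 lower, against 23.8% of its 16970 tested genes called (11.3% higher and 12.5% lower). The 9 members called here were called there in the same direction. It called 8 more, Adam12 and Adam23 higher and Adam18, Adamts8, Adamts9, Mmp1a, Mmp2 and Mmp24 lower, of which 5 had too few reads for the filter used here. Members with no read were Mmp16, Mmp20 and a second Mmp27 entry, 12 Adams most of which are known from testis (Adam2, Adam6a, Adam6b, Adam7, Adam20, Adam24, Adam25, Adam26a, Adam26b, Adam29, Adam34 and Adam39), and Adamts18 and Adamts19. Adam1a, Adam4, Adam11 and Mmp23 were tested on few reads and not called, and 63.7% of the exon bases of Adam1a are shared with Gm42878. The 34 members below the filter held 1 to 44 reads over all libraries and reached at most 0.154 FPKM. Exons of 9 of the 22 members called or at 1 FPKM or more overlap another gene, over 0.992% to 28.3% of their exon bases. Among members outside those 22, Mmp24 (13.6%), Adamts8 (10.6%), Adamts9 (9.18% with 1 gene and 2.82% with another) and Timp3 (21.3%) overlap other genes as well. Such reads cannot be told apart.

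**Figure D5:**
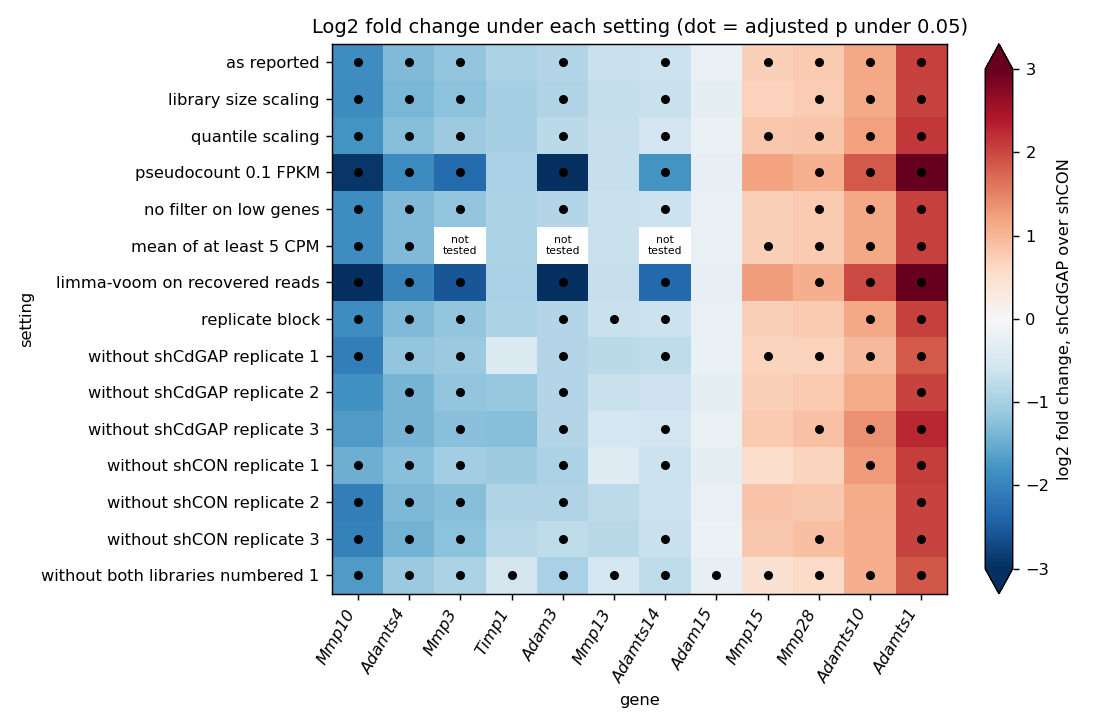
Log2 fold changes (shCdGAP over shCON, by colour) of 12 of the 22 members called or at 1 FPKM or more, those that passed the threshold in at least 1 fit, in columns, under each fit in rows, with a dot where the adjusted p was under 0.05. The columns of Adamts1 and Adamts4 carry a dot in every row, and that of Mmp15 in few.

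Regulators and targets of these enzymes, from lists that do not contain members, changed in both directions. Of 21 tested regulators of metalloprotease activity, 2 were higher and 6 lower, with a median fold change of -0.12, against 9.92% higher, 11.1% lower and a median of -0.01 over all genes, which also hold for the lists that follow. Serpine2, an inhibitor of serine proteases, fell (-1.98, adjusted p = 5.95e-04, limma) and Plau, the urokinase that generates plasmin, rose (0.77, adjusted p = 0.00279, limma). Pcolce, an enhancer of procollagen processing, fell as well (-0.91, adjusted p = 0.00641, limma), as did Ctsl, a lysosomal protease (-0.85, adjusted p = 0.00913, limma), whose call was lost without shCON replicate 2 (adjusted p = 0.0519). With any 1 library left out this list had 1 to 4 genes higher and 3 to 9 lower. Of 13 tested partners of Adam10 and Adam17, 2 were higher and 1 lower. The tetraspanin Tspan15, which escorts Adam10 and steers it to N-cadherin, stood at 15.5, 21.7 and 22.8 FPKM in shCdGAP libraries, and at 3.93, 5.87 and 5.64 FPKM in shCON libraries. The groups were far apart (1.77, adjusted p = 0.00253, limma), and Tspan33, another Adam10 tetraspanin, rose by 0.78 (adjusted p = 0.00183, limma). Itga5, an integrin subunit, fell (-1.20, adjusted p = 0.00118, limma), and without shCdGAP replicate 1 the list had 4 genes higher and 4 lower.

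Among 25 tested shed substrates of Adam10 and Adam17, 5 were higher and 4 lower, with a median of -0.01. The adhesion molecule Vcam1 stood at 12, 13.6 and 16.2 FPKM in shCdGAP libraries, and at 1.16, 1.37 and 1.08 FPKM in shCON libraries (2.76, adjusted p = 1.38e-04, limma). The Egf receptor ligand Areg stood at 19.4, 34.9 and 42.9 FPKM in shCdGAP libraries, and at 196, 139 and 118 FPKM in shCON libraries (-2.22, adjusted p = 0.00654, limma). Both pairs of groups were apart, in opposite directions, and Btc, a further ligand, fell by 2.14 (adjusted p = 8.26e-04, limma). Cdh1, the E-cadherin gene, averaged 168 ± 16.1 FPKM in shCdGAP libraries and 50.7 ± 11.1 FPKM in shCON libraries (1.73, adjusted p = 0.00220, limma). With any 1 library left out this list had 2 to 7 genes higher and 2 to 8 lower. Of 14 tested matrix substrates, 3 were higher and 2 lower. Acan, the aggrecan core protein that Adamts4 and Adamts1 cut, stood at 0.00595, 0 and 0 FPKM in shCdGAP libraries, and at 5.28, 4.03 and 3.39 FPKM in shCON libraries (-2.37, adjusted p = 2.78e-04, limma). The transcript was near absent from shCdGAP cells. Acan passed the read filter through its shCON libraries alone, so it had to differ once tested. Nid2, of basement membranes, and Fn1, fibronectin, rose by 0.95 and 1.79 (adjusted p = 0.00161 and 0.00172, limma), and Col4a2, a chain of collagen type IV, fell by 0.49 (adjusted p = 0.0106, limma), a call lost without shCON replicate 2 (adjusted p = 0.0670) or replicate 3 (adjusted p = 0.0627).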

How the data were processed

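Total RNA was sequenced in 3 shCdGAP and 3 shCON libraries. The submitters' processing notes name Trimmomatic, TopHat2 2.0.13, featureCounts and the authors' DESeq2, and build mm10, without saying what each did. The authors deposited 1 table of FPKM values. Per the file headers, the authors' own DESeq2 results stand beside them: mean signal, log2 fold change and standard error, test score, p-value and adjusted p-value. Strand handling is not given in the sources used here. Dividing out gene constants and size factors gave whole reads for 100% of values (tolerance 1e-06), and these served for depth, the filter and limma-voom.

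The table holds FPKM and no raw counts, and the count model planned for raw counts was not used. That model was not run on the recovered reads either, which went into limma-voom as an alternative. The main fit was limma 3.58.1 in R 4.3.3 on log2(FPKM + 1), with trend and robust options and the group as its single term. Its tests were 2-sided, with Benjamini-Hochberg adjustment over 13483 genes at 0.05. Genes needed at least 10 reads at median depth in at least 3 libraries and 15 reads in all. Members chosen to be named were those past the threshold or with a mean of at least 1 FPKM in a group, beside those the authors' table called or at 0 reads. Some other members with few reads are named as well. Of each list, up to 4 changed genes with the smallest p are named. Members and lists were chosen with earlier results of these data known. Chromosome medians use genes averaging 3 FPKM or more. Positions are from GENCODE M21, where 79 of the 80 members were found (a second Mmp27 identifier was not). Promoters are from RefSeq (GRCm38.p6). Of the steps, the limma fit alone was tested on simulated reads. Their spread was set from the shCON libraries and did not copy the outlying shCdGAP replicate 1. Python 3.11.15, numpy 2.4.6, pandas 2.3.3, scipy 1.17.1 and matplotlib 3.10.9 were used.

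The groups share replicate numbers. Numbers 1, 2 and 3 gave correlations of 0.43, 0.39 and 0.34 between the 2 groups' deviations from their means. Number 1 of each group correlated negatively with numbers 2 and 3 of the other. Numbers 2 and 3 could not be matched, since shCdGAP number 2 correlated at 0.35 with shCON number 3, and shCdGAP number 3 at 0.27 with shCON number 2. Whether same-numbered libraries are pairs is thus not settled by the data, and the labels do not say. The reported fit has no block and would ignore such pairs. The blocked fit was an alternative, and Mmp15 and Mmp28 lost their calls in it. Other alternatives were scalings, pseudocounts and filters, limma-voom, and leaving out libraries.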

Additional observations from a re-analysis of the deposited data

How the results depend on the processing

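Alternative fits gave 304 values of the 22 members called or at 1 FPKM or more. Of these values 266 kept their direction and their side of the threshold, 21 lost the call, 4 gained it and 13 changed sign. None of those 13 was called in either fit. Without both libraries numbered 1 the sign changed for Adam8 (0.25), Adam9 (0.028), Mmp11 (-0.044), Mmp14 (-0.0085) and Timp2 (-0.059). With 1 library left out, the fold changes ran from -0.23 to 0.042 for Adam17, -0.42 to 0.10 for Adam8, -0.028 to 0.64 for Adamts7, -0.15 to 0.60 for Mmp11 and -0.0086 to 0.19 for Mmp14, the sign changing without shCdGAP replicate 1. They ran from -0.097 to 0.026 for Adam9, with the sign changing without shCdGAP replicate 2 or shCON replicate 1, and from -0.027 to 0.28 for Timp2, with it changing without shCON replicate 1. The count of members changed was 9 as reported, 4 to 10 with 1 library left out, and 14 without both libraries numbered 1. Members higher were 4 as reported, 2 with the replicate block and 1 to 5 with 1 library left out. Members lower were 5 as reported, 8 with no filter on low genes, 2 with a mean of at least 5 CPM required (3 of the 5 were then not tested), 9 without both libraries numbered 1 and 3 to 6 with 1 library left out. All tested genes changed were 2838 as reported, 1237 to 5373 with 1 library left out (the most when shCdGAP replicate 1 was dropped) and 6506 without both libraries numbered 1. The replicate block ended the calls of Mmp15 and Mmp28, added Mmp13 and changed no other named member's call. Fits that leave out a library assume that the remaining ones vary alike. Low reads limit genes under the filter, and the cause of these differences was not tested.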

Other observations

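Relatives of these proteases outside the 4 families were also read. Of 11 tested zinc metalloproteases and Adamts-like genes, 4 were lower in shCdGAP cells and none higher in limma, against 11.1% lower and 9.92% higher over all tested genes, with a median fold change of -0.31 against -0.01. In 4 alternatives 1 gene was higher (quantile scaling, a pseudocount of 0.1 FPKM, limma-voom and without shCdGAP replicate 3), and quantile scaling left 2 lower. Adamtsl3, an Adamts-like protein without a protease domain, averaged 0.0300 ± 0.0476 FPKM in shCdGAP libraries and 0.312 ± 0.0400 FPKM in shCON libraries (SD, n = 3 each; fold change -0.35, adjusted p = 0.00763, limma). Mme, the peptidase neprilysin, averaged 0.0650 ± 0.0152 FPKM in shCdGAP libraries and 0.305 ± 0.0773 FPKM in shCON libraries (-0.29, adjusted p = 0.0178, limma). Adamtsl4, which binds fibrillin, averaged 2.20 ± 0.367 FPKM in shCdGAP libraries and 3.61 ± 0.158 FPKM in shCON libraries (-0.53, adjusted p = 0.0252, limma). Phex, a membrane endopeptidase known from phosphate balance, had -0.31 (adjusted p = 0.0259, limma). The call of Adamtsl4 was lost with the replicate block (adjusted p = 0.0582) and in every fit without 1 library other than shCdGAP replicate 1 (adjusted p up to 0.113). Mme lost its call with quantile scaling and without any 1 of replicates 2 and 3 of either group (adjusted p up to 0.0788), and Phex with quantile scaling, with no filter and without shCdGAP replicate 2, shCdGAP replicate 3 or shCON replicate 2 (adjusted p up to 0.0863). With 1 library left out the list had 1 to 7 genes lower, and 7 without shCdGAP replicate 1.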
